A study of Rattus norvegicus with 24 samples.

Results

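The Gpr genes are the protein-coding genes whose symbol is Gpr, a number and at most 1 letter from a to c, a naming series given to G protein-coupled receptors (GPCRs) found by sequence before a ligand was known. The rule found 71 such genes among the 32545 genes of the table, and 46 of them were expressed in the rat nucleus accumbens (NAc), taken as a mean over all 24 libraries of at least 0.5 FPKM, a fragment count corrected for gene length and sequencing depth. The NAc, core and shell together, was taken from adult male Sprague Dawley rats that were 8 weeks old on arrival, with 1 library per rat, unpooled, and 4 libraries in each of 6 groups. In the injection experiment, rats first received 5 intraperitoneal injections of saline or of 250 µg/kg lipopolysaccharide (LPS), a bacterial wall component that activates the immune system. After 1 week they were injected for 5 days with saline or with heroin rising from 1 to 5 mg/kg, and were killed 1 hour after the last injection. The paper states that every injected rat spent a short session in a locomotor activity chamber after that injection. Death followed within 1 hour of the end of the session. Groups are named by the first and then the second agent, so that Saline-Saline is the control of LPS-Saline, of Saline-Heroin and of the combined LPS-Heroin group. In the self-administration (SA) experiment, catheterized rats worked for saline (Saline-SA) or for heroin at 0.075 mg/kg per infusion (Heroin-SA) in 10 daily sessions of 6 hours and were killed straight after the last session. No female was studied, and no SA rat received LPS. The SA rats differed from the injected rats in surgery, single housing, a reversed light cycle and the time of death. No locomotor session before death is described for them.

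GPCRs span the cell membrane several times and pass signals to G proteins, which raise or lower second messengers such as cyclic AMP. Most medium spiny neurons of the NAc carry either dopamine D1 receptors, coupled to stimulatory G proteins, or D2 receptors, coupled to inhibitory ones, and several receptors of the Gpr series are concentrated in these cells. Others of the series mark oligodendrocytes, microglia or endothelium, and some are not classical receptors at all but proteins of lysosomes and the Golgi apparatus that kept the name.

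The libraries held between 12312878 and 18850240 reads on genes. Drd1 and Drd2, which mark medium spiny neurons, were present in every group, at group means of 58.8 to 82.6 FPKM and 34.5 to 73.3 FPKM. Marker genes of neighbouring tissue varied strongly between libraries. The summed FPKM of 6 markers of cortical excitatory neurons was 464 to 509 in LPS-Heroin and 165 to 347 in Saline-Saline, and in 1 Saline-Saline library (replicate 1) 7 choroid plexus markers summed to 335 FPKM against 1.76 to 32.5 in all others. Fewer cells of a type and less RNA per cell cannot be told apart in bulk tissue.

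For 37 of the 46 expressed genes RefSeq gave a promoter in the GRCr8 assembly, and the 250 bases before the start were searched on both strands for TGACG (the half-site of the cyclic AMP response element, CRE), for the full CRE TGACGTCA, for the GC box GGGCGG and for the TATA box TATAAA; a full CRE holds half-sites too. These 37 genes had 39 promoters, with a median GC content of 62.8% and a median of 16 CpG dinucleotides, against 51.2% and 5 over all 33469 promoters. A CRE half-site was present in 12 of the 39 (30.8%, against 18.2% of all promoters), a GC box in 18 (46.2%, against 30.5%) and a TATA box in 4 (10.3%, against 12.9%). The full CRE was present in 1, that of Gpr6, and in 1.59% of all promoters. The 33469 promoters were not limited to expressed genes, as the 39 were. These shares therefore do not set Gpr genes apart from other expressed genes. The following 5 sequences belong to the genes whose levels are described in most detail among the injected groups; capitals mark CRE half-sites, GC boxes and TATA boxes. They lie in GRCr8 at chr1:196196953-196197202 on the plus strand (Gpr26), chr6:54044986-54045235 on the minus strand (Gpr22), chrX:140579735-140579984 on the minus strand (Gpr101), chrX:65553133-65553382 on the plus strand (Gpr165) and chr5:150698527-150698776 on the minus strand (Gpr3).
Gpr26 promoter: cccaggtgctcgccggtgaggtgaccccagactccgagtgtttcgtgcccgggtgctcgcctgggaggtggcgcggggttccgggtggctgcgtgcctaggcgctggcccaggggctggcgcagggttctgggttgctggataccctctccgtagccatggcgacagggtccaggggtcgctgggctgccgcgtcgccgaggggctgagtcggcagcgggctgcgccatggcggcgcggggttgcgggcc
Gpr22 promoter: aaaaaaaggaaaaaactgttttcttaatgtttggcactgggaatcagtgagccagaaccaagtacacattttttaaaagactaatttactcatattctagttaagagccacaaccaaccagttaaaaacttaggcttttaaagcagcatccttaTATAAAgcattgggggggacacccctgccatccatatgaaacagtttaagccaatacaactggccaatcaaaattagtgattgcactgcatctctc
Gpr101 promoter: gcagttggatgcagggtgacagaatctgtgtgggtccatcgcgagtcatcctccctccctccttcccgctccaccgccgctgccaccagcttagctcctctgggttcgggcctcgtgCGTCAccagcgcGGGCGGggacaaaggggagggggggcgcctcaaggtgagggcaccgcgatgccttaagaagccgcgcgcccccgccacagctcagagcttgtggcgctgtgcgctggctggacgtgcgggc
Gpr165 promoter: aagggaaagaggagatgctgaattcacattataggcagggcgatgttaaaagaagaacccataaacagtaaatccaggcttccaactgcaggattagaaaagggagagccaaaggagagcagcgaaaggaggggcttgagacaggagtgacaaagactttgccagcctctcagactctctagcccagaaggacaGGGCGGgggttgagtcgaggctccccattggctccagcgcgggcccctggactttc
Gpr3 promoter: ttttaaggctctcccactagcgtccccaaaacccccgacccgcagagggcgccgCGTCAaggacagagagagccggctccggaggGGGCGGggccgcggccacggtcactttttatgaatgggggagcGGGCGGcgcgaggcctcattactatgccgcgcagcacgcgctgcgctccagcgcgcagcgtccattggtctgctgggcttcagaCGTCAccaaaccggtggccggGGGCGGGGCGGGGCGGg
The Gpr26 promoter was 74% GC with 26 CpG and held none of the motifs, whereas the Gpr22 promoter was 37.2% GC with no CpG and held a TATA box. The Gpr3 promoter held 2 CRE half-sites and 5 GC boxes. The Gpr101 promoter held 1 of each of these motifs and the Gpr165 promoter 1 GC box. A match is a description of these letters and not of binding.

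Of the 71 genes, 64.8% were expressed, compared with 62.1% of all 22293 protein-coding genes and 66.7% of 24 adhesion GPCRs. The 46 expressed genes had a median of 5.98 FPKM, lower than the 10.8 FPKM of all 13848 expressed coding genes. Gpr162 had 64.1 FPKM and Gpr137, a lysosomal membrane protein, 62.1 FPKM. In all, 16 genes lay between 10 and 50 FPKM, 23 between 1 and 10, and 4 between 0.5 and 1.

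**Figure D1:**
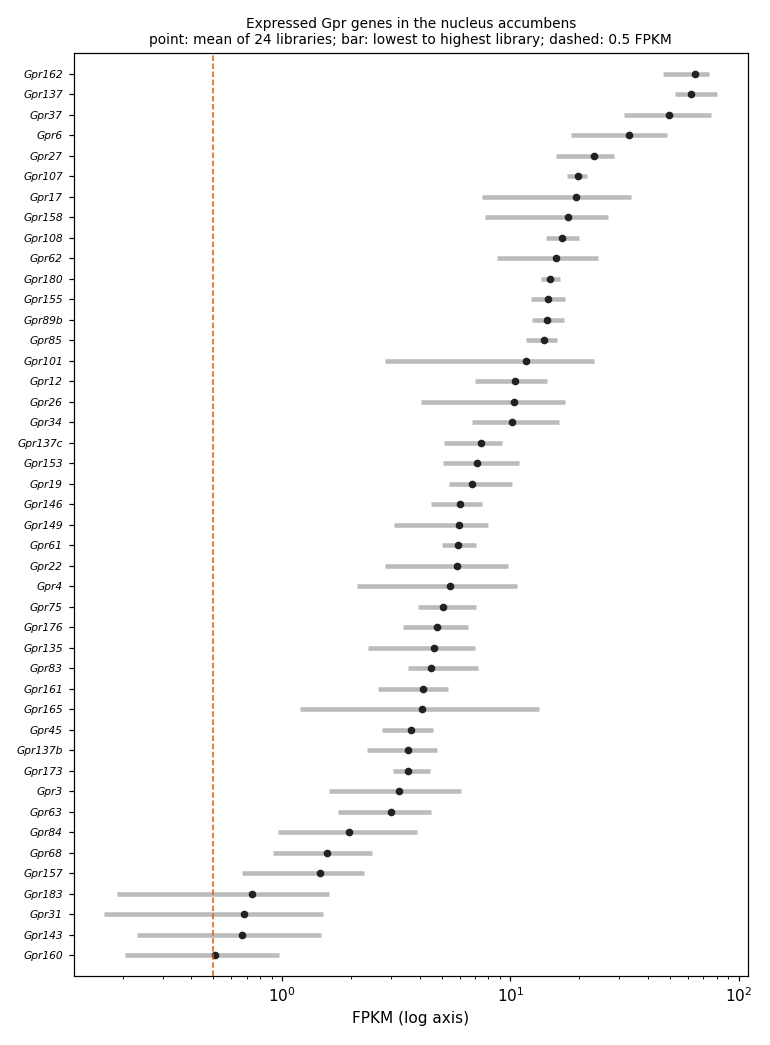
FPKM of 44 of the expressed Gpr genes on a log axis. Points are means of 24 libraries, grey bars run from the lowest to the highest library and the dashed line marks 0.5 FPKM; Gpr162 has a mean of 64.1 FPKM, and the bars of Gpr101 and Gpr165 are among the widest.

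The gene positions that the files give are in the rn6 assembly, an older build than that of the promoters. Gpr26 (ENSRNOG00000047057) lies at chr1:203971152-203988709 on the plus strand. Gpr22 (ENSRNOG00000008423) lies at chr6:51011426-51019407 on the minus strand and Gpr101 (ENSRNOG00000027658) lies at chrX:140299770-140303686 on the minus strand. Gpr165 (ENSRNOG00000012995) lies at chrX:65796429-65804591 on the plus strand and Gpr19 (ENSRNOG00000007126) lies at chr4:168639940-168656673 on the minus strand. Gpr3 (ENSRNOG00000009540) lies at chr5:151394524-151397603 on the minus strand and Gpr62 (ENSRNOG00000022567) lies at chr8:115166410-115167486 on the minus strand. The 46 expressed genes and the rest of the 71 are spread over 19 chromosomes, and 5 of the expressed genes are on X.

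The upper group mixed several roles. Gpr37, which is made mainly by oligodendrocytes and for which prosaposin has been proposed as a ligand, had a mean of 49.5 FPKM. Gpr6, a constitutively active receptor of the indirect-pathway neurons that raises cyclic AMP, had 33.1 FPKM, and its relatives Gpr12 and Gpr3 had 10.5 and 3.24 FPKM. Of the SREB family, a conserved trio of brain receptors, Gpr27 had 23.1, Gpr85 14.0 and Gpr173 3.56 FPKM. Gpr17, a brake on oligodendrocyte maturation, had 19.3 FPKM, Gpr62, another oligodendrocyte receptor, 15.8 FPKM and Gpr34, a microglial receptor, 10.2 FPKM. The class C receptor Gpr158, which binds the G protein regulator Rgs7, had 17.9 FPKM. Gpr155, a lysosomal cholesterol sensor, had 14.6 FPKM, Gpr101, coupled to stimulatory G proteins, 11.7 FPKM and Gpr26, a constitutively active brain receptor, 10.4 FPKM.

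Several receptors of high level or of known striatal enrichment that had no call in any comparison are given by their ranges. Gpr162 had 46.7 to 73.8 FPKM over the 24 libraries, Gpr137 52.6 to 80.6 FPKM and Gpr27 15.9 to 28.5 FPKM. Gpr6 had 20.6 to 40.4 FPKM in Saline-Saline, 18.4 to 40.4 FPKM in LPS-Heroin and 34.0 to 44.5 FPKM in Heroin-SA. Gpr149 had 3.09 to 8.01 FPKM, Gpr155 12.3 to 17.3 FPKM and Gpr83, a receptor of the neuropeptide PEN, 3.55 to 7.20 FPKM.

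The limit of 0.5 FPKM fell among genes with few reads. Gpr143, known from pigment cells, at 0.670 FPKM (5 to 36 reads per library) and Gpr160 at 0.508 FPKM (5 to 26 reads) were just inside it. Gpr139, a receptor that opposes mu opioid receptor signalling, was just outside at 0.422 FPKM, with 0 to 21 reads and none in 3 libraries, and Gpr182 had 0.293 FPKM. Gpr139 reached 1.40 FPKM in Saline-Saline replicate 3 and did not exceed 0.274 FPKM in any LPS-Heroin library. Its log2 difference from Saline-Saline was -0.50 ± 0.87 (SE) in LPS-Saline and -0.37 ± 0.73 after heroin alone, neither called. In LPS-Heroin and Saline-SA against Saline-Saline it was under the limit, and without a filter on low values it was called in both, at group means of 0.147 and 0.200 FPKM against 0.782 FPKM. In all, 22 genes lay above 0 but under 0.5 FPKM, and Gpr119, Gpr33 and Gpr142 were listed at 0 in every library. Most immune receptors of the series were in this low range: of 15 assigned to microglia and other immune cells, 5 were expressed, namely Gpr34, Gpr84, Gpr183, Gpr31 and Gpr160. Gpr52, a striatal receptor, was not analysed here.

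The spread between rats of a group differed from gene to gene. The median within-group SD of the 46 genes was 0.251 on the log2 scale, against 0.186 for all expressed coding genes. Group means of Gpr107, a Golgi protein, differed by at most 1.05-fold, whereas those of Gpr165 differed by 4.26-fold, of Gpr101 by 3.59-fold and of Gpr26 by 3.17-fold; the median over the 46 genes was 1.43-fold. In 11 of the 46 genes the span overlapped another annotated gene, namely Gpr17 (Lims2), Gpr22 (Cog5), Gpr34 (Cask), Gpr183 (Ubac2), Gpr137b, Gpr137c, Gpr146, Gpr158, Gpr165 (a lincRNA), Gpr173 and Gpr176. The libraries were directional, but whether reads were counted by strand is not stated in the sources used here. For Gpr165, Gpr137c and Gpr173 an overlapping gene lies on the same strand, so counting by strand would not separate their reads. The values of all 11 genes are therefore uncertain.

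Changes between groups were tested with limma on log2(FPKM + 0.1) over all genes, and a gene was called at an unadjusted p of at most 0.05 and a log2 fold change of at least 0.378 in size, which is 1.3-fold. Fold changes on this scale understate those of low genes. Apart from the comparison of both control groups, no gene of the genome had an adjusted p under 0.05 in limma with Benjamini-Hochberg adjustment, so the calls of Gpr genes that follow are unadjusted. The comparisons of LPS-Saline, Saline-Heroin and LPS-Heroin with Saline-Saline share the same 4 control rats and are not independent of each other. For 4 against 4 rats the smallest exact two-sided permutation p is 0.0286.

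LPS-Saline was compared with Saline-Saline for the lasting trace of LPS without heroin. Of 47 Gpr genes tested, 2 were called (4.26%), both higher, where 2.37% of all genes tested were called (1.21% higher and 1.16% lower). At an unadjusted p of at most 0.05 without the fold limit 5 of the 47 passed, against 6.63% of all genes. The calls were Gpr26 and Gpr135. The median log2 difference of the Gpr genes was 0.02, against 0.01 over all genes. Without Saline-Saline replicate 1 or LPS-Saline replicates 1 or 4 the count was 1, and without LPS-Saline replicate 3 it was 4. Without LPS-Saline replicates 1 or 4 both Gpr26 and Gpr135 lost their calls, and the 1 call was of another Gpr gene. None of the 5 immune-cell receptors was called: Gpr84, a receptor for medium-chain fatty acids on myeloid cells, had 1.33 to 3.89 FPKM in Saline-Saline and 1.71 to 2.45 FPKM in LPS-Saline. The Saline-Saline values of Gpr84 enclosed those of LPS-Saline, and the log2 difference was -0.21 ± 0.30 (SE). Gpr34 differed by -0.09 ± 0.18 on the log2 scale.

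Gpr135 had 4.52, 4.66, 4.80 and 3.62 FPKM in Saline-Saline and 5.83, 5.88, 4.56 and 7.03 FPKM in LPS-Saline. In all LPS-Saline rats but replicate 3 it was above every control, and replicate 3 lay among them. The log2 fold change was 0.39 ± 0.15 (SE), and limma's adjusted p was 0.735. The call was lost without any 1 of Saline-Saline replicate 4 or LPS-Saline replicates 1, 2 and 4, and with 4 of 9 other settings (a pseudocount of 1, all 24 libraries in 1 fit, limma-voom and the replicate block).

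Gpr158 was the Gpr gene whose LPS-Saline and Saline-Saline rats did not overlap, 1 of 47 (2.13%) where 4.11% of all genes had no overlap. It had 18.3, 16.2, 20.3 and 19.3 FPKM in Saline-Saline and 22.9, 21.8, 25.7 and 24.8 FPKM in LPS-Saline. The log2 fold change of 0.36 ± 0.09 (SE) stayed under the fold limit, so it was not called. Its values were 23.3, 19.7, 20.8 and 26.8 FPKM in Saline-Heroin and 20.2, 26.5, 16.3 and 21.5 FPKM in LPS-Heroin, which overlapped all other injected groups. In the 16 injected rats the heroin effect after LPS was lower than that after saline by a log2 interaction of -0.47 ± 0.18 (SE), at an adjusted p of 0.992 (limma). It was the 1 Gpr gene of 47 called for interaction (2.13%), where 2.31% of all genes were called (1.26% higher and 1.05% lower). It was also the 1 gene with an unadjusted p of at most 0.05 (4.02% of all genes), and the call was lost without LPS-Heroin replicate 3 and with all 24 libraries in 1 fit. Rgs7, its partner, was called in none of the comparisons.

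Gpr26 stood higher in every treated group of the injection experiment and again in Heroin-SA. Saline-Heroin was compared with Saline-Saline for heroin alone, and of 46 Gpr genes tested 4 were called (8.70%), 2 higher and 2 lower, where 3.07% of all genes were called (1.4% higher and 1.67% lower). Without the fold limit 7 passed, against 6.57% of all genes. The combination, LPS-Heroin against Saline-Saline, gave 5 calls of 46 (10.9%), 2 higher and 3 lower, where 5.43% of all genes were called (2.99% higher and 2.44% lower), and none but these 5 passed without the fold limit (11.3% of all genes). Gpr26 and Gpr22 were higher in both comparisons, and Gpr165 was lower in both. Leaving out 1 library moved the count for heroin alone to 1 (Saline-Heroin replicate 3 left out), 2 (Saline-Saline replicates 2 or 3 or Saline-Heroin replicate 1) or 7 (Saline-Heroin replicate 4).

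Gpr26 had 8.21, 8.28, 9.41 and 9.88 FPKM in Saline-Saline and 12.9, 11.3, 8.84 and 16.3 FPKM in LPS-Saline. Its values were 11.7, 12.4, 13.9 and 13.6 FPKM in Saline-Heroin and 17.4, 13.5, 12.3 and 16.7 FPKM in LPS-Heroin. All 8 heroin-injected rats were above all 4 Saline-Saline rats, while LPS-Saline replicate 3 lay within the control range. The log2 fold change against Saline-Saline was 0.43 ± 0.17 (SE) after LPS alone, 0.52 ± 0.09 after heroin alone and 0.73 ± 0.13 after both, and limma's adjusted p was 0.736, 0.750 and 0.144 in that order. Exact permutation gave p = 0.0857, 0.0286 and 0.0286. Both heroin calls held without any 1 library and under all 9 other settings, whereas the LPS-Saline call was lost without 4 of the 8 libraries, namely Saline-Saline replicates 1 and 2 and LPS-Saline replicates 1 and 4. LPS-Heroin exceeded LPS-Saline by 0.30 ± 0.19 and Saline-Heroin by 0.20 ± 0.12, neither of which was called.

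Gpr22 had 4.26, 5.49, 4.07 and 5.92 FPKM in Saline-Saline and 6.67, 6.58, 4.65 and 7.46 FPKM in LPS-Saline. With heroin it had 9.57, 6.25, 8.19 and 5.26 FPKM in the Saline-Heroin group and 7.87, 7.19, 5.79 and 9.74 FPKM in the LPS-Heroin group. The lowest rat of each treated group overlapped the controls. Against Saline-Saline the log2 fold change was 0.54 ± 0.20 (SE) in Saline-Heroin and 0.61 ± 0.18 in LPS-Heroin, and 0.35 ± 0.18, not called, in LPS-Saline. The LPS-Heroin call held without any 1 library, while that of Saline-Heroin was lost without Saline-Saline replicates 1 or 3 or Saline-Heroin replicates 1 or 3 and with the replicate number as a block.

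**Figure D2:**
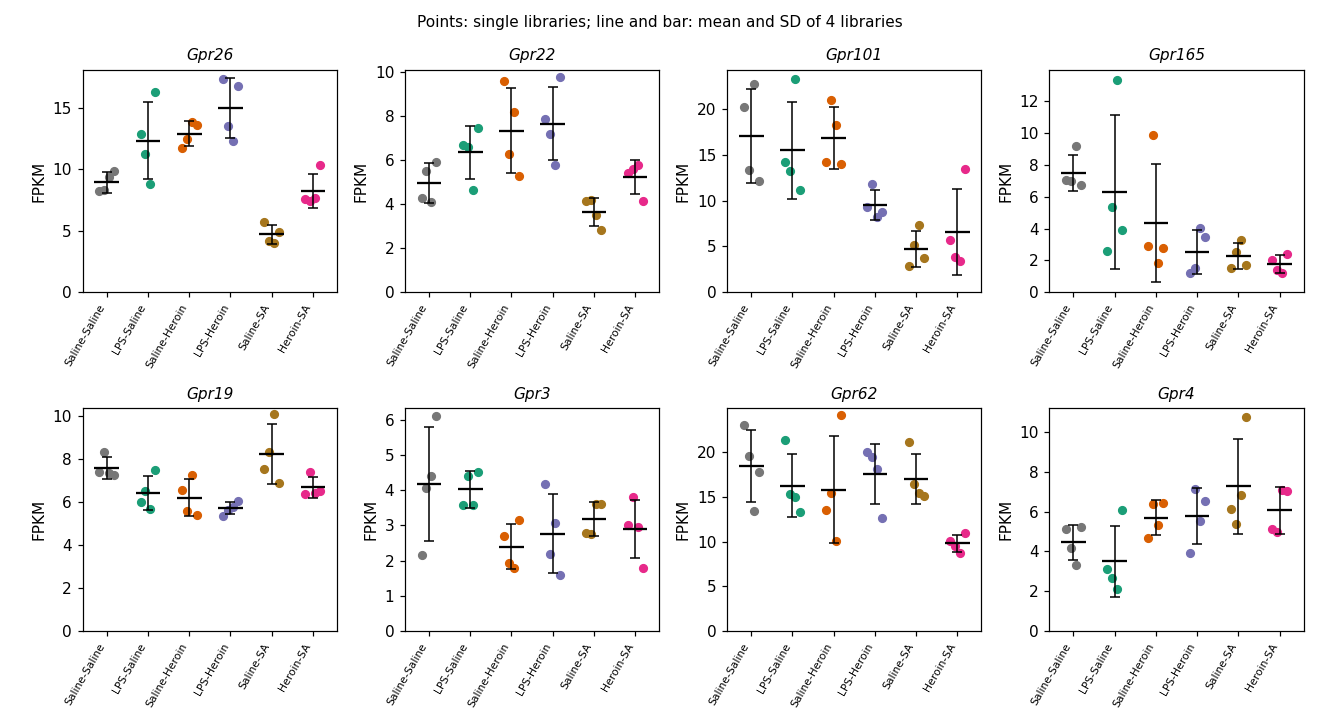
FPKM of 8 Gpr genes in the 24 libraries, by group. Points are single rats, lines and bars the mean and SD of 4; all heroin-injected rats lie above the Saline-Saline rats for Gpr26, and all Heroin-SA rats lie below the Saline-SA rats for Gpr62.

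Gpr165 had 7.08, 7.00, 9.18 and 6.73 FPKM in Saline-Saline and 2.58, 5.34, 13.4 and 3.89 FPKM in LPS-Saline. It had 2.92, 9.89, 1.82 and 2.79 FPKM in Saline-Heroin and 1.21, 1.55, 4.01 and 3.44 FPKM in LPS-Heroin. The LPS-Heroin rats were all below the controls, and 1 rat each of LPS-Saline and Saline-Heroin was above them all. The log2 fold change was -1.67 ± 0.35 (SE) in LPS-Heroin (exact permutation p = 0.0286, adjusted p of 0.179 in limma) and -1.07 ± 0.44 in Saline-Heroin. The LPS-Heroin call held without any 1 library and under all 9 other settings. The Saline-Heroin call held in 1 of 8 repeats that left out a library, the one without Saline-Heroin replicate 2, and the value ran from -1.56 to -0.77.

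Gpr101 had 20.2, 13.3, 22.7 and 12.1 FPKM in Saline-Saline, 14.2, 13.2, 23.2 and 11.2 FPKM in LPS-Saline and 14.2, 20.9, 18.2 and 14.0 FPKM in Saline-Heroin. In LPS-Heroin it had 9.31, 11.8, 8.15 and 8.74 FPKM. The LPS-Heroin rats were below every Saline-Saline and every Saline-Heroin rat and overlapped LPS-Saline only at its lowest rat. LPS-Heroin was compared with LPS-Saline for the effect of heroin after LPS, and with Saline-Heroin for the effect of earlier LPS in heroin-injected rats. Against Saline-Heroin, Gpr101 was the 1 Gpr gene called of 45 tested (2.22%), where 2.2% of all genes were called (1.2% higher and 0.999% lower). It was also the 1 of 45 at an unadjusted p alone (4.21% of all genes) and the 1 whose groups did not overlap (2.37% of all genes), with a log2 fold change of -0.81 ± 0.16 (SE), exact permutation p = 0.0286 and a limma adjusted p of 0.985. Against Saline-Saline the change was -0.80 ± 0.21 and against LPS-Saline -0.66 ± 0.21. All 3 calls held without any 1 library, and that against LPS-Saline was lost with all 24 libraries in 1 fit. Over both heroin levels Gpr101 was also the 1 gene of 47 called for LPS (2.13%), where 1.77% of all genes were called (0.926% higher and 0.84% lower) and 4 Gpr genes passed without the fold limit (6.67% of all genes). Its change was -0.48 ± 0.17 (SE) on the log2 scale, a call that was lost with all 24 libraries in 1 fit. The interaction of LPS and heroin was -0.67 ± 0.33, not called.

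The levels of these 4 genes can be set beside the cortical markers of the same libraries. The library with the lowest cortical sum of its group had the highest Gpr165 of that group in 6 of 6 groups and the highest Gpr101 in 5 of 6, a pattern chosen after the values were seen. It was LPS-Saline replicate 3 (cortical sum 162 FPKM, Gpr165 13.4 FPKM, Gpr101 23.2 FPKM), Saline-Heroin replicate 2 (219, 9.89 and 20.9 FPKM) and Heroin-SA replicate 4 (124, 2.41 and 13.5 FPKM), among others. The same library had the lowest Gpr22 in 4 of 6 groups and the lowest Gpr26 in 3 of 6, although in Heroin-SA it had the highest Gpr26. That library of LPS-Heroin, replicate 3, had the lowest Gpr101 of its group (8.15 FPKM), and cortical sums there ran only from 464 to 509 FPKM. In LPS-Heroin against Saline-Saline 5 of 6 cortical markers were called higher, where 2.99% of all genes were. The median log2 change of the cortical markers was 1.09. Of 6 markers of septum and ventral forebrain 3 were called lower, where 2.44% of all genes were. Their sums were 18.3 to 39.0 FPKM in LPS-Heroin against 33.1 to 90.7 FPKM in Saline-Saline. The part of cortical, septal and ventral forebrain tissue in the changes of Gpr26, Gpr22, Gpr165 and Gpr101 was not tested.

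**Figure D3:**
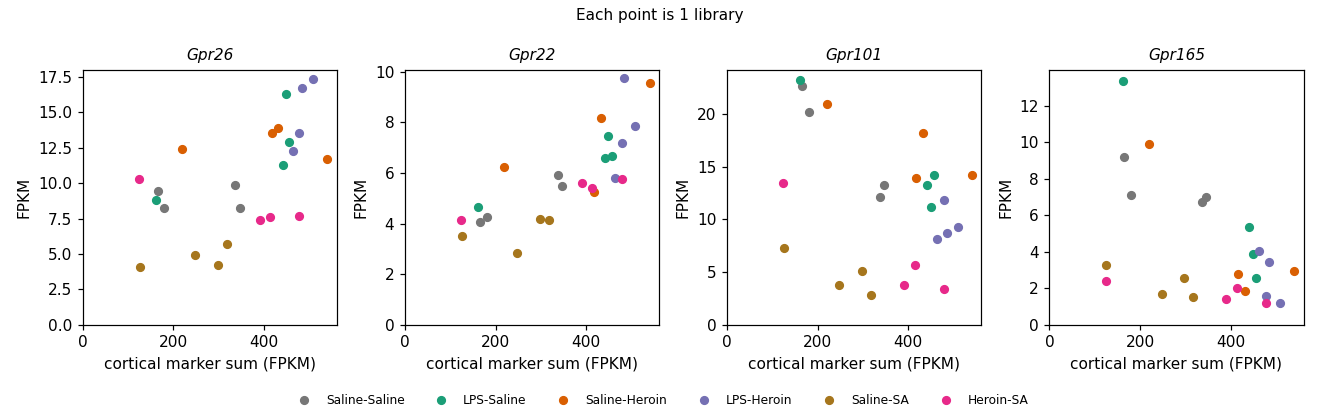
FPKM of Gpr26, Gpr22, Gpr101 and Gpr165 against the summed FPKM of 6 cortical excitatory neuron markers, 1 point per library, coloured by group. Libraries of a group spread from left to right except in LPS-Heroin (464 to 509 FPKM). The leftmost library of its group had the highest Gpr165 in 6 of 6 groups and the highest Gpr101 in 5 of 6. Most SA libraries lay below the injected ones for Gpr26 and Gpr101.

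Gpr19 had 7.40, 8.34, 7.35 and 7.27 FPKM in Saline-Saline and 5.37, 5.64, 5.80 and 6.06 FPKM in LPS-Heroin. All LPS-Heroin rats were below all controls, and the log2 fold change was -0.40 ± 0.09 (SE), just past the fold limit, with exact permutation p = 0.0286. The call was lost without Saline-Saline replicate 2 or LPS-Heroin replicate 1. In LPS-Saline it had 5.99, 6.50, 5.70 and 7.51 FPKM and in Saline-Heroin 6.56, 5.60, 7.27 and 5.42 FPKM, log2 differences of -0.24 ± 0.11 and -0.29 ± 0.11 that stayed under the fold limit. The Saline-Heroin rats did not overlap the controls, but barely, as the highest of them and the lowest control both round to 7.27 FPKM. With Gpr19 counted, 2 of 46 Gpr genes (4.35%), Gpr19 and Gpr26, had no overlap where 3.39% of all genes had none. In LPS-Heroin 4 of 46 had none (8.70%, against 6.86%).

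Heroin injection was also tested over both LPS levels in the 16 injected rats. Of 47 Gpr genes 6 were called (12.8%), 3 higher and 3 lower, where 2.46% of all genes were called (1.08% higher and 1.38% lower), and 10 passed without the fold limit, against 8.11% of all genes. Gpr26 rose by 0.41 ± 0.11 (SE) on the log2 scale, Gpr22 by 0.40 ± 0.15 and Gpr4, a proton sensor of endothelium, by 0.57 ± 0.19. Gpr165 changed by -1.11 ± 0.37, Gpr3 by -0.66 ± 0.22 and Gpr84 by -0.47 ± 0.20. The smallest adjusted p among the 47 genes was 0.547 in limma. The calls of Gpr4, Gpr165 and Gpr3 held without any 1 library, whereas that of Gpr26 was lost without LPS-Saline replicate 3 or LPS-Heroin replicate 1. That of Gpr22 was lost without Saline-Saline replicates 1 or 3, LPS-Saline replicate 3, Saline-Heroin replicates 1 or 3 or LPS-Heroin replicate 4. That of Gpr84 was lost without Saline-Saline replicates 2 or 4, LPS-Saline replicate 1, Saline-Heroin replicates 2 or 3 or LPS-Heroin replicate 4. Gpr84 had 0.963 to 1.86 FPKM in Saline-Heroin and 1.40 to 1.97 FPKM in LPS-Heroin, which overlapped both groups without heroin.

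Gpr3, the relative of Gpr6 and Gpr12, had 2.16, 4.05, 4.39 and 6.09 FPKM in Saline-Saline and 3.58, 4.40, 3.57 and 4.53 FPKM in LPS-Saline. It had 2.71, 1.93, 1.79 and 3.14 FPKM in Saline-Heroin and 4.17, 2.18, 3.07 and 1.60 FPKM in LPS-Heroin. Saline-Saline replicate 1 was as low as the heroin rats, and LPS-Heroin replicate 1 as high as the rats without heroin. The log2 change was -0.72 ± 0.31 (SE) in Saline-Heroin against Saline-Saline and -0.61 ± 0.27 in LPS-Heroin against LPS-Saline, and 6 and 7 of the 8 repeats that left out a library lost the call. The first call held without Saline-Saline replicate 1 or Saline-Heroin replicate 4 and the second without LPS-Heroin replicate 1, and the second was lost with 6 of 9 other settings. Of 8 immediate early genes, which neurons switch on when active, 7 (Egr1, Junb, Arc, Nr4a1, Fos, Fosb and Egr2) were called lower in both of these comparisons. Of all genes 1.67% and 1.15% were called lower. The summed FPKM of the 8 was 105 to 201 in Saline-Heroin against 201 to 374 in Saline-Saline. In LPS-Heroin the sum was 147 to 424 FPKM against 326 to 413 FPKM in LPS-Saline. In Heroin-SA the sum was 124 to 196 FPKM against 213 to 247 FPKM in Saline-SA. Gpr3 was not called there, with means of 2.89 and 3.19 FPKM. The part of immediate early genes in the change of Gpr3 was not tested. Gpr6 and Gpr12 differed from Saline-Saline by 0.19 ± 0.20 and 0.23 ± 0.13 in Saline-Heroin, and neither was called in any injected comparison.

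LPS-Heroin against LPS-Saline gave 3 calls of 46 (6.52%), 1 higher and 2 lower, where 2.29% of all genes were called (1.14% higher and 1.15% lower): Gpr4 beside Gpr101 and Gpr3. Without the fold limit 4 passed, against 4.6% of all genes, and 1 of 46 did not overlap (2.17%, against 2.58% of all genes), Gpr61. Gpr4 had 3.10, 2.69, 2.13 and 6.10 FPKM in LPS-Saline and 3.91, 7.14, 5.53 and 6.56 FPKM in LPS-Heroin. The high LPS-Saline rat, replicate 4, lay among the LPS-Heroin rats. The log2 fold change was 0.79 ± 0.31 (SE), and the call was lost in 6 of 8 repeats that left out a library, those without LPS-Saline replicates 1, 2 or 3 or LPS-Heroin replicates 2, 3 or 4. None of 5 endothelial markers was called in this comparison. Without LPS-Saline replicates 2 or 3 or LPS-Heroin replicate 2 the count of calls fell to 1.

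**Figure D4:**
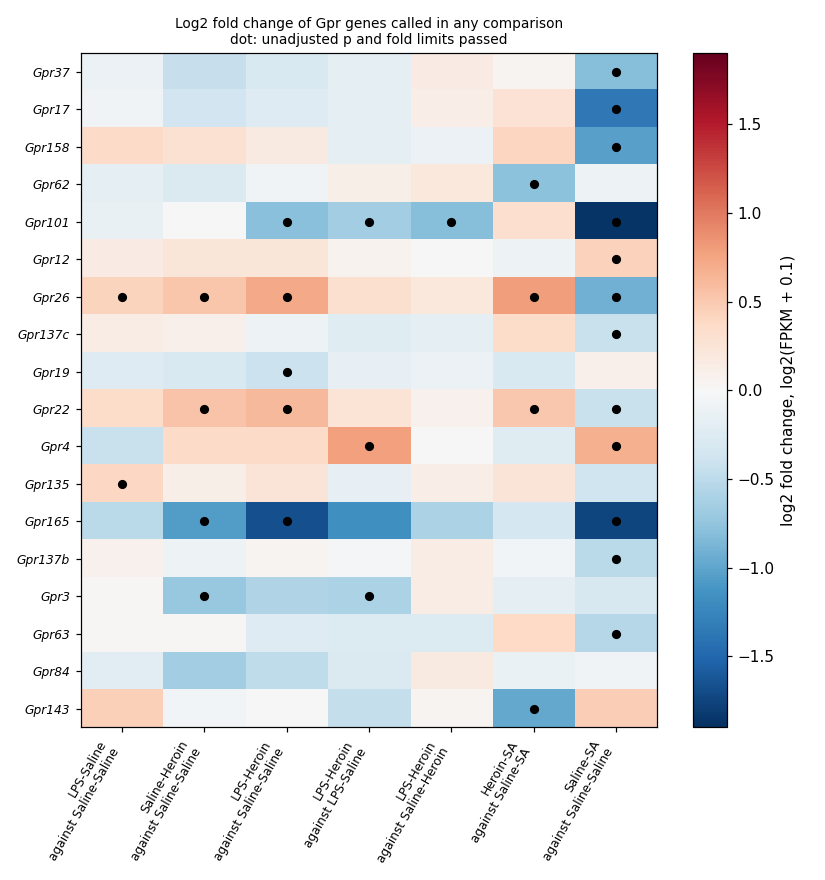
Log2 fold changes of 18 of the Gpr genes called in any comparison, in the 7 comparisons of group pairs (colour scale, log2(FPKM + 0.1)). Dots mark calls; Gpr26 is called in 5 of the 7 columns, higher in 4 and lower in Saline-SA against Saline-Saline.

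Heroin-SA was compared with Saline-SA for heroin that the rats took themselves. Of 44 Gpr genes tested 4 were called (9.09%), 2 higher and 2 lower, where 5.45% of all genes were called (3.04% higher and 2.41% lower), and 5 passed without the fold limit (11.5% of all genes). Gpr62 had 21.1, 16.5, 15.4 and 15.1 FPKM in Saline-SA and 10.1, 9.49, 8.71 and 11.0 FPKM in Heroin-SA. All Heroin-SA rats were below all Saline-SA rats, by a log2 fold change of -0.78 ± 0.12 (SE), with exact permutation p = 0.0286 and an adjusted p of 0.198 in limma. The call held without any 1 library and under all 9 other settings. Without Heroin-SA replicate 3 the count of calls in this comparison was 7. Gpr62 is a receptor of oligodendrocytes, and none of 7 oligodendrocyte markers was called, with summed FPKM of 4189 to 5307 in Heroin-SA and 4256 to 4824 in Saline-SA. The other oligodendrocyte receptors, Gpr37 and Gpr17, differed by 0.05 ± 0.13 and 0.28 ± 0.26 on the log2 scale and were not called. In the injected rats Gpr62 lay between 10.1 and 24.2 FPKM, with a log2 difference for heroin of -0.08 ± 0.17 over both LPS levels.

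Gpr26 had 5.72, 4.20, 4.04 and 4.93 FPKM in Saline-SA and 7.61, 7.42, 7.69 and 10.3 FPKM in Heroin-SA. The groups did not overlap, and the log2 fold change was 0.79 ± 0.15 (SE), with exact permutation p = 0.0286 and a limma adjusted p of 0.255, held without any 1 library. Gpr22 had 4.12, 4.16, 3.49 and 2.82 FPKM in Saline-SA and 5.40, 5.60, 5.77 and 4.12 FPKM in Heroin-SA. Heroin-SA replicate 4, the library of the low cortical sum, lay among the Saline-SA rats, and the log2 fold change of Gpr22 was 0.51 ± 0.17. Gpr143 was called lower at -0.97 ± 0.39, from 0.679 to 1.48 FPKM in Saline-SA to 0.231 to 0.540 FPKM in Heroin-SA, values of few reads each, and the call was lost without Saline-SA replicates 3 or 4 or Heroin-SA replicates 2 or 3. Gpr165 and Gpr101, low in both SA groups, were not called, at -0.33 ± 0.31 and 0.32 ± 0.44. In all 4 of 44 Gpr genes did not overlap (9.09%, against 6.8% of all genes).

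The difference between the heroin effects of SA and injection was tested in 16 rats, a contrast added after the data were seen. None of 45 Gpr genes was called in limma, none had an unadjusted p under 0.05 (6.55% of all genes had one), and 4.38% of all genes were called (2.64% higher and 1.74% lower). For Gpr26 the heroin effect by SA less that by injection was 0.27 ± 0.18 (SE), for Gpr22 -0.03 ± 0.27 and for Gpr62 -0.51 ± 0.30 on the log2 scale. Leaving out single libraries gave up to 4 calls, the most without Heroin-SA replicate 3. The route of heroin, its dose and the handling of both experiments cannot be told apart in this contrast.

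The control rats of both experiments, Saline-SA and Saline-Saline, gave the most calls of the 7 pairs of groups. Of 45 tested, 13 were called (28.9%), 3 higher and 10 lower, where 22.8% of all genes were called (8.47% higher and 14.3% lower). Without the fold limit 15 passed (37% of all genes), and by limma's adjusted p 10 were under 0.05 (23.7% of all genes). Gpr101 had the widest difference, with 2.83, 5.13, 7.30 and 3.74 FPKM in Saline-SA against the 12.1 to 22.7 FPKM of Saline-Saline. No rat overlapped, and the log2 difference was -1.86 ± 0.30 (SE), for which limma's adjusted p was 0.00363. Gpr165, with 1.51 to 3.29 FPKM, differed by -1.74 ± 0.24, Gpr158, with 7.78 to 10.9 FPKM, by -1.04 ± 0.12 and Gpr26, with 4.04 to 5.72 FPKM, by -0.92 ± 0.13. Each of these 4 genes had no overlap, as had 12 of the 45 (26.7%, against 28.3% of all genes). Of those 12, Gpr137 and Gpr45 were not called.

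Gpr17 and Gpr37, of the oligodendrocyte lineage, were lower in Saline-SA. Gpr17 had 13.9, 8.26, 11.3 and 7.49 FPKM against 29.0, 28.9, 25.8 and 19.6 FPKM in Saline-Saline, and Gpr37 had 36.8, 37.4, 38.6 and 31.7 FPKM against 74.2, 70.6, 53.7 and 56.3 FPKM. Neither overlapped, with log2 differences of -1.35 ± 0.21 (SE) and -0.81 ± 0.12. Gpr62 differed by -0.10 ± 0.17 and was not called. Of oligodendrocyte markers 5 of 7 were called lower, and of precursor markers 3 of 6, where 14.3% of all genes were called lower. Prosaposin (Psap), the proposed ligand of Gpr37, was the 1 called of 6 genes listed for ligands, at -0.41 ± 0.08. The part of oligodendrocytes and their precursors in the differences was not tested.

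Gpr12 and Gpr6 are relatives that raise cyclic AMP without a ligand. Gpr12 had 10.9, 11.2, 12.3 and 13.7 FPKM in Saline-SA against 9.62, 8.90, 9.99 and 6.98 FPKM in Saline-Saline, with no overlap. It was higher by 0.44 ± 0.13 (SE) on the log2 scale, with a limma adjusted p of 0.0373, and its call was lost without Saline-Saline replicate 4 or Saline-SA replicate 4. Gpr6 (24.7 to 48.7 FPKM against 20.6 to 40.4 FPKM) and Gpr149 (4.40 to 7.83 FPKM against 3.09 to 7.16 FPKM) both differed by 0.43, with SE of 0.26 and 0.27, and were not called. Of 10 medium spiny neuron markers 7 were called higher (8.47% of all genes were), with a median log2 difference of 0.62.

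Gpr4 was higher by 0.67 ± 0.23 (SE), at 5.40 to 10.7 FPKM against 3.31 to 5.21 FPKM. Of 5 endothelial markers 3 were called higher too, where 8.47% of all genes were. The remaining calls were lower in Saline-SA: Gpr63 (2.03 to 2.74 FPKM against 2.85 to 3.82 FPKM) at -0.54 ± 0.16, Gpr137b (2.35 to 3.15 FPKM against 3.49 to 4.79 FPKM) at -0.51 ± 0.15, Gpr22 at -0.42 ± 0.18 and Gpr137c (5.10 to 6.09 FPKM against 5.97 to 8.62 FPKM) at -0.42 ± 0.13. The calls of Gpr22 and Gpr137c were lost without single libraries, for Gpr22 Saline-Saline replicates 2 or 4 or Saline-SA replicates 3 or 4 and for Gpr137c Saline-Saline replicates 1 or 3 or Saline-SA replicate 3. Mitochondrial genes took 10.7 to 15.9% of reads in Saline-SA and 6.82 to 8.64% in Saline-Saline. Light cycle, housing, surgery, the locomotor session before death, time of death and mitochondrial share all differ between these groups and cannot be told apart.

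**Figure D5:**
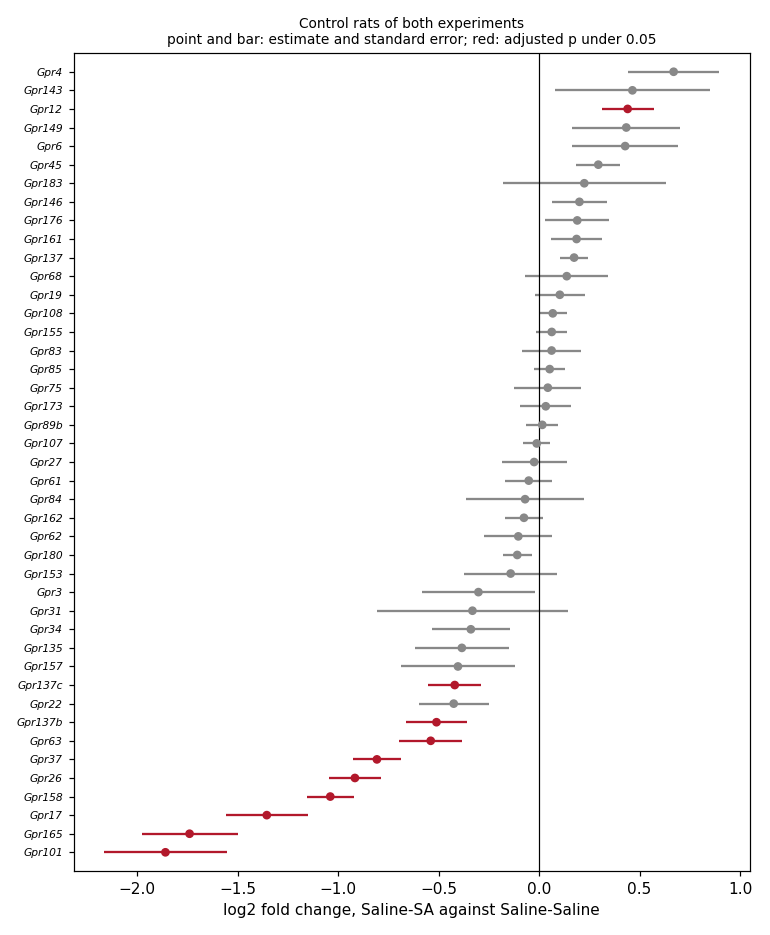
Log2 difference of 43 Gpr genes between Saline-SA and Saline-Saline, with standard errors. The 10 red genes have an adjusted p under 0.05 in limma, 9 of them lower in Saline-SA; Gpr101 is at -1.86 and Gpr165 at -1.74.

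By role, the SREB family (Gpr27, Gpr85 and Gpr173) had no call in any comparison, and of Gpr6 and its relatives Gpr3 alone had one between injected groups. Of 8 intracellular proteins of the series, 2 were called (Gpr137b and Gpr137c), in the comparison of the control groups. Of 22 entries for G proteins and their effectors, which carry the receptors' signals, 1 was called in LPS-Heroin against Saline-Saline (5.43% of all genes). It was the lower of a pair named Gnas, at -1.50 ± 0.35, and the other entry of that name was not called there. The called entry was also called over both LPS levels for heroin and between the control groups. None of the 22 was called in LPS-Saline or Saline-Heroin against Saline-Saline or in Heroin-SA against Saline-SA. Between the control groups 1 was higher and 5 were lower, where 22.8% of all genes were called (8.47% higher and 14.3% lower). The adenylyl cyclase Adcy5 and the stimulatory subunit Gnal, which couple receptors to cyclic AMP in the striatum, were not called in any comparison.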

How the data were processed

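Total RNA of the NAc was sequenced from poly(A)-selected directional libraries. Per the submitters' processing notes, reads were processed with fastp, HISAT2 and featureCounts on rn6; versions are not given in the sources used here. The authors deposited FPKM values of 32545 genes, normalised for the length of the gene and the reads of the library. FPKM times gene length was a whole multiple of 1 step per library for 100% of values (tolerance 0.01 reads), which gave the reads quoted and the depth of 12312878 to 18850240 reads. The authors' paper states more samples per group than the 4 used here, and another interval between LPS and heroin than the labels.

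Groups came from the labels. Differences were fitted with limma 3.58.1 (limma-trend, R 4.3.3) on log2(FPKM + 0.1), in the libraries compared, over genes with a mean of at least 0.5 FPKM in them, with Benjamini-Hochberg adjustment over all genes tested; main effects and interaction used the 16 injected libraries. Exact two-sided permutation tests used the 70 regroupings of 4 and 4. Genes named were all those called, the 6 of the highest mean, known striatal receptors, Gpr26 and the 2 on each side of 0.5 FPKM; others are given by level, and 2 genes are not reported here, though counts include them. The members, role lists and marker lists were chosen with earlier results of these data known. Alternatives were other pseudocounts, filters, normalization, fits with all libraries, limma-voom on the recovered reads, a replicate block and leaving out each library. The fits were tested on simulated reads for LPS-Heroin against Saline-Saline only. Every gene was given the same scatter between rats there, and genes of low level were given no change. That test therefore does not cover genes of low level or of wide scatter, such as Gpr165. Promoters are RefSeq's in GRCr8 and motif search was by Python 3.11.15.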

Additional observations from a re-analysis of the deposited data

Results flagged for a closer look

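In groups of 4 libraries, 9 values stood apart from their group by Dixon's test among 162 groups examined; chance flags about 1 in 20, or 8.1 here. They were Gpr6 in LPS-Saline replicate 3 (34.6 FPKM, with at most 24.1 in the others), Gpr155 in Saline-SA replicate 1 (15.6 FPKM), Gpr26 in Heroin-SA replicate 4 (10.3 FPKM, against 7.42 to 7.69), Gpr19 in Saline-Saline replicate 2 (8.34 FPKM) and in Heroin-SA replicate 2 (7.41 FPKM), and Gpr63 in Saline-SA replicate 2 (2.74 FPKM). Gpr165 stood apart in Saline-Saline replicate 3 (9.18 FPKM) and in Saline-Heroin replicate 2 (9.89 FPKM, against 1.82 to 2.92), and Gpr143 in Saline-SA replicate 4 (1.48 FPKM). Gpr6, Gpr26 and Gpr165 each did so in a library with the lowest cortical marker sum of its group.

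Gpr158 was called for a difference in the heroin effect between rats with and without LPS, a log2 interaction of -0.47. The call was unadjusted, and limma's adjusted p was 0.992. It was 1 call of 47 Gpr genes (2.13%), where 2.31% of all genes were called. The call was lost without LPS-Heroin replicate 3 and with all 24 libraries in 1 fit.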

How the results depend on the processing

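No alternative turned the direction of any of the 40 called values. Of 360 repeats of the calls under 9 other settings 332 kept the call and 28 lost it, a call being counted as lost where a stricter filter removed its gene, and of 384 that left out 1 library 312 kept it and 72 lost it. With adjusted p under 0.05 as the limit, 0 Gpr genes remained in every comparison but Saline-SA against Saline-Saline, while with all 24 libraries in 1 fit Heroin-SA against Saline-SA had 1 (and 78 of all genes). Without the fold limit the counts were 5 (LPS-Saline) and 7 (Saline-Heroin) against Saline-Saline, 4 for LPS and 10 for heroin over both levels. LPS-Saline against Saline-Saline gave 1 call with a pseudocount of 1, with all 24 libraries in 1 fit and with limma-voom; LPS-Heroin against Saline-Saline gave 8 without a filter; LPS gave 2 without a filter and 0 with all 24 libraries in 1 fit, as did the interaction (0); the heroin effect by SA less that by injection gave 1 with quantile normalization. The cause of these shifts was not tested. Leaving out 1 library gave counts of 1 to 4 (LPS-Saline), 1 to 7 (Saline-Heroin) and 5 to 7 (LPS-Heroin) against Saline-Saline, 1 to 4 for LPS-Heroin against LPS-Saline, 1 to 2 against Saline-Heroin, 3 to 7 for Heroin-SA, 10 to 14 for the control groups, 1 to 3 for LPS, 4 to 7 for heroin, 0 to 3 for the interaction and 0 to 4 for the difference of the heroin effects. The 7 of Heroin-SA came without Heroin-SA replicate 3. LPS gave 3 without LPS-Saline replicate 3, and LPS-Heroin against Saline-Heroin gave 2 without LPS-Heroin replicate 2. The interaction gave 0 without LPS-Heroin replicate 3, 3 without LPS-Saline replicate 4, and 2 without Saline-Saline replicates 1 or 3, Saline-Heroin replicates 1 or 4 or LPS-Heroin replicate 2. The difference of the heroin effects stayed at 0 without Saline-Saline replicates 2 or 3, Saline-SA replicates 3 or 4 or Heroin-SA replicate 2, and gave 1 to 4 without any other library.

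Same-numbered libraries correlated by -0.150 to 0.154. Differently numbered libraries were not set beside them, so these values cannot settle whether the numbers pair rats. With the replicate number as a block the counts were 1 for LPS-Saline against Saline-Saline, 2 for the interaction and 1 for the difference of the heroin effects; other counts stayed within 1.5 times.

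Genes under 1 FPKM rest on few reads, and with 4 rats per group the exact tests end at 0.0286.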
